A study of Mus musculus with 9 samples.

Results

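The genes described here are 39 interferon-stimulated and MHC class I genes, chosen by symbol from the deposited table of raw gene counts, which lists 35275 genes. All 39 symbols were found once each. Of these, 38 passed the filter on low counts and are among the 13901 genes tested. The exception, Mx1, had between 1 and 14 counts per library. The RNA came from the gastrocnemius, a calf muscle, of female NSG (NOD scid gamma) mice aged 12 weeks, whose genotype is labelled Wild Type. In the MDA-MB-231 EV group (5 libraries) the mice had received extracellular vesicles (EVs), small membrane-bound particles shed by cells, from MDA-MB-231 cells, which derive from a human breast tumour. In the MCF-10A EV group (4 libraries) the vesicles came from MCF-10A, a human breast epithelial line that does not form tumours. Both groups were given about 10 µg of EVs into the tail vein at each of 10 injections, 2 per week over 5 weeks, and muscle was collected 2 days after the last. The comparison sets one kind of EV against the other, with no uninjected mice among the libraries analysed here, so a value cannot be assigned to either kind of EV alone.

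Interferons are secreted signals, of which type I interferon is released by cells on sensing foreign nucleic acid. Type I interferon binds a receptor whose kinases activate a complex that holds STAT2 and IRF9 and binds the interferon-stimulated response element (ISRE) in the promoters of antiviral genes, whereas interferon gamma acts through a receptor of its own and induces IRF1. Both raise MHC class I, the complex of a heavy chain and beta-2 microglobulin that shows peptides at the surface of nearly every nucleated cell. Skeletal muscle fibres normally hold little MHC class I, and much of what a muscle sample contains is known to belong to its vessels and immune cells. NSG mice carry the scid mutation and lack the common gamma chain of cytokine receptors, so T, B and NK cells are missing while monocytes and macrophages remain.

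Total counts ranged from 13943465 to 25195826 per library. Summed over their marker genes, muscle fibres accounted for 126583 to 154870 CPM (counts scaled to a common library size) in MDA-MB-231 EV and for 171111 to 219295 CPM in the MCF-10A EV libraries. Of 9 NK cell markers 5 had no count in any library, and T cell markers summed to at most 1.65 CPM. B cell markers reached 141 CPM, nearly all from Ighm, an immunoglobulin heavy chain, while Pax5 and Blk had no count. MDA-MB-231 EV replicates 1, 3 and 4 and MCF-10A EV replicates 2 and 3 also held transcripts of pancreatic islets, with Ins2 above 10 CPM. Any split by islet transcripts thus also parts MCF-10A EV replicates 2 and 3 from replicates 1 and 4. Islet transcripts and these replicates cannot be told apart. MCF-10A EV replicate 1 stood apart from the other libraries for many of the genes described here, so results that rest on it are given with and without it. In whole tissue, fewer cells of a type and less RNA per cell cannot be told apart.

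The promoters of many of these genes carry the ISRE core in the reference genome. RefSeq promoter windows (build GRCm38.p6, the same assembly as mm10; 250 bases before to 50 bases after each start) were matched for 28 of the 39 genes. The core was searched as GAAA, any 2 bases and GAAA, on both strands, where overlapping matches can share bases. It was present in windows of 15 of the 28 genes, against 3.99% of the 27025 genes with a window. It lay before the start in 13 of them, and only after the start in Ddx58 and Ifih1. All 5 interferon-induced GTPases with a window held it, as did 6 of 11 antiviral effectors, 1 of 5 genes of MHC class I and peptide loading (B2m) and 1 of 4 transcription factors (Stat2). The core of the gamma-activated site, searched as TTC, any 3 bases and GAA, was in windows of 7 of the 28 genes, against 9.55% of all genes. A match of letters is not evidence of binding. The stretches below show the upstream matches, in capitals, for 4 genes given with all their values (B2m, Stat2, Bst2, Rsad2) and for 4 genes more than 2-fold higher in MCF-10A EV replicate 1 than in the rest of its group (Isg15, Ifit3, Oas1a, Gbp3). They are written 5′ to 3′ on the strand of the gene and end before the RefSeq start. Capitals that open with T are the core read on the opposite strand.
B2m, chr2:122147528-122147577, plus strand: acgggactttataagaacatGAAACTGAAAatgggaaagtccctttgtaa
Stat2, chr10:128270256-128270305, plus strand: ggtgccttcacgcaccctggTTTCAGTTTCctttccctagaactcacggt
Bst2, chr8:71537567-71537622, minus strand: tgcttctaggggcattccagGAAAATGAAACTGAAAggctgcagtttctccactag
Isg15, chr4:156200855-156200916, minus strand: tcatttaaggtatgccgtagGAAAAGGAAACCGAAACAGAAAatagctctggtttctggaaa
Ifit3, chr19:34583353-34583436, plus strand: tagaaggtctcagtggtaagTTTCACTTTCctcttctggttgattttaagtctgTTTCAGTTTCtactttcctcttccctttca
Oas1a, chr5:120907526-120907565, minus strand: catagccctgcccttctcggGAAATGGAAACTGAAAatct
Gbp3, chr3:142559979-142560034, plus strand: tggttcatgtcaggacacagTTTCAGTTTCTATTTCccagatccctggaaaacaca
Rsad2, chr12:26456543-26456592, minus strand: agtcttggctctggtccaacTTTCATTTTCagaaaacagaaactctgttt
The matches of Isg15 overlap one another, 3 in a run from 78 to 57 bases before the start. Those of Ifit3 are separate, and those of B2m and Stat2 lie 139 and 222 bases before it.

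Most of the genes were expressed at low levels in this muscle. Levels between genes are compared as FPKM, the deposited values, which divide the count by gene length and by the total of the library. Over all 9 libraries 4 genes averaged 10 FPKM or more, 26 lay between 1 and 10 FPKM, and 9 lay under 1 FPKM. The median of the 38 tested genes was 1.83 FPKM, against 3.53 FPKM over all tested genes. Together the 39 genes took 0.0398% to 0.0462% of counts in MDA-MB-231 EV and 0.0292% to 0.0407% in MCF-10A EV. The 4 genes above 10 FPKM were B2m, the light chain of MHC class I, at 79.7 FPKM, H2-D1, a heavy chain, at 48.7 FPKM, Bst2 (tetherin), which holds budding virus at the cell surface, at 15.8 FPKM, and Tapbp (tapasin), which loads peptide onto the heavy chain, at 12.4 FPKM. The lowest were Nlrc5, the transactivator of MHC class I genes, at 0.126 FPKM on 5 to 28 counts per library, and Mx1 at 0.0887 FPKM. Mx2 is listed as a polymorphic pseudogene and averaged 0.337 FPKM.

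**Figure D1:**
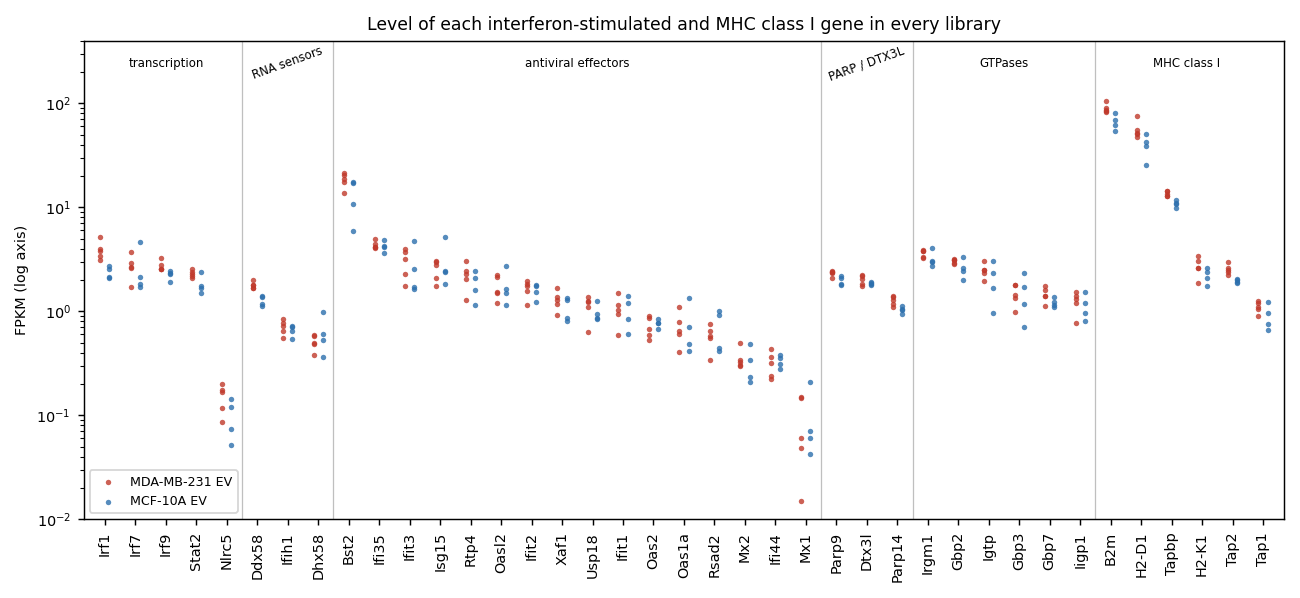
FPKM of each of the 39 genes (log axis) in every library, 1 point per library, with MDA-MB-231 EV in red and MCF-10A EV in blue, grouped by role and ordered by mean level within a role. B2m and H2-D1 lie highest, at means of 79.7 and 48.7 FPKM, and most other genes lie between 1 and 10 FPKM.

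The heavy chains H2-K1 and H2-D1, encoded at either end of the MHC on chromosome 17, differed widely in level. Per length, H2-D1 was 16.4 to 28.9 times H2-K1 in MDA-MB-231 EV and 14.5 to 24.2 times H2-K1 in MCF-10A EV. The reference assembly is that of C57BL/6J, whereas NSG mice carry MHC alleles of the NOD strain, and heavy chain genes have near-identical copies among the H2-Q and H2-T genes. Reads lost or shared for these reasons were not measured and need not be equal for both genes. The levels of H2-K1 and H2-D1, and the ratio between them, are therefore uncertain. H2-K1 was at 4.84 ± 0.937 CPM in MDA-MB-231 EV (SD, n = 5) and at 4.35 ± 0.591 CPM in MCF-10A EV (SD, n = 4).

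No gene of the 39 passed the test between the EV groups. With edgeR's quasi-likelihood test and a Benjamini-Hochberg adjusted p under 0.05, 0 of 38 tested genes were called, beside a background of 0% over all 13901 genes, and the lowest adjusted p among the 38 was 0.260 (Irf1). DESeq2 gave an adjusted p to 6 of the 38 and called 0 of these, where it called 3.06% of the genes to which it gave one. At an unadjusted p under 0.05, 3 genes were higher in MDA-MB-231 EV (Irf1, Ddx58 and B2m), beside a background of 5.95%, and 0 were lower, beside a background of 6.86%. The 3 genes are 7.89% of those tested, close to the background. Fold changes divide the MDA-MB-231 EV level by the MCF-10A EV level on the log2 scale, and 24 of 38 (63.2%) lay above 0, beside 53.1% of all tested genes. The median over the 38 was 0.071, beside 0.020 over all tested genes. Leaving aside the 6 genes of MHC class I and peptide loading, the median of the other 32 was 0.015. The labels number the samples without stating that each is a separate animal, so p-values measure only the spread between these samples, which may be technical.

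**Figure D2:**
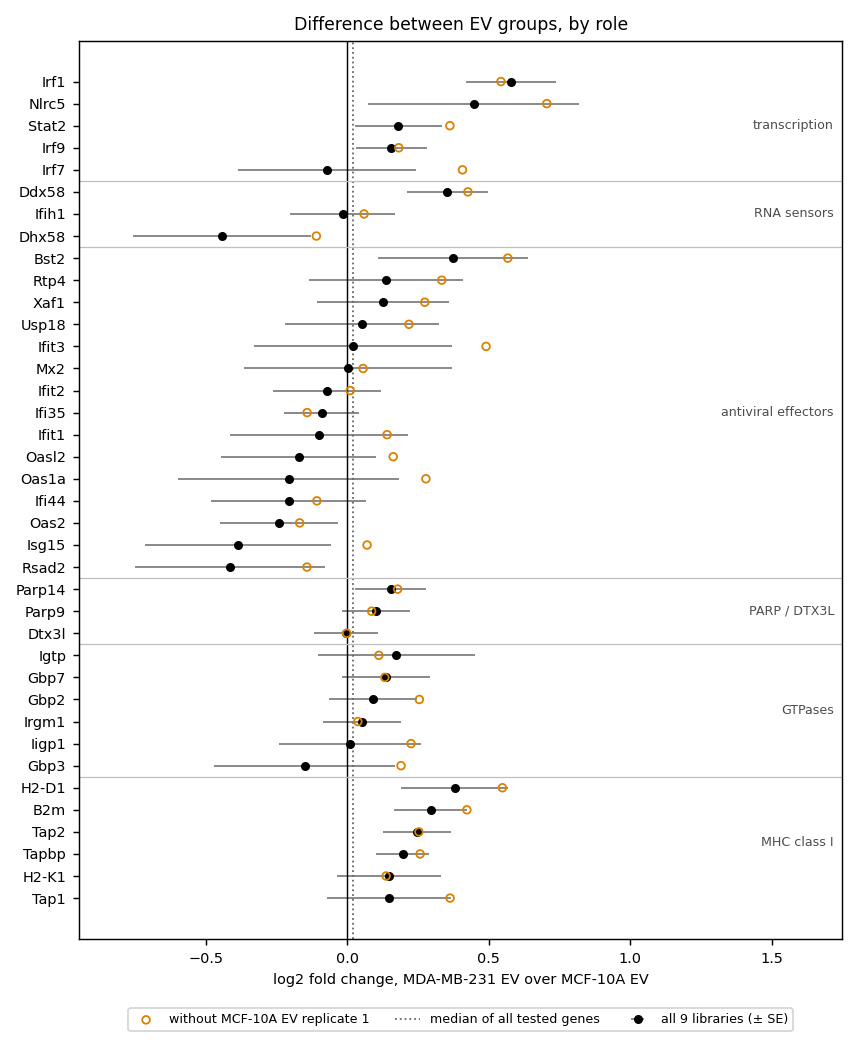
Log2 fold change (MDA-MB-231 EV divided by MCF-10A EV) for the 38 tested genes, by role, with all 9 libraries (black, bars ± SE) and without MCF-10A EV replicate 1 (open orange circles). The dotted line is the median of all tested genes, 0.020. All 6 genes of MHC class I and peptide loading lie above 0, between 0.15 and 0.38, and the antiviral effectors lie on both sides.

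The transcription factors and co-activators did not pass, and only Irf1 of the 5 was higher in every MDA-MB-231 EV library than in every MCF-10A EV library. Irf1 (ENSMUSG00000018899; chromosome 11, 53770014 to 53778374, plus strand), the factor that interferon gamma induces, read 7.90, 10.4, 7.09, 6.41 and 8.06 CPM across replicates 1 to 5 of MDA-MB-231 EV, against 4.95, 4.90, 5.93 and 5.51 CPM across replicates 1 to 4 of MCF-10A EV. The groups did not overlap. Its mean was 7.97 ± 1.5 CPM with MDA-MB-231 EV (SD, n = 5) and 5.32 ± 0.489 CPM with MCF-10A EV (SD, n = 4), and the log2 fold change was 0.58 ± 0.16 (SE; adjusted p = 0.260, edgeR). It was 0.54 without MCF-10A EV replicate 1. Among libraries with islet transcripts (3 of MDA-MB-231 EV and 2 of MCF-10A EV) it was 0.39 ± 0.22, and among those without (2 of each) 0.81 ± 0.23. Groups did not overlap, with MDA-MB-231 EV higher, for 3 of the 38 genes (Irf1, Ddx58 and Tap2), beside a background of 2.22%. None of the 38 had all MDA-MB-231 EV libraries lower, beside a background of 3.17%.

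Stat2 and Irf9, which encode parts of the ISRE-binding complex, did not pass. Stat2 was at 9.28, 9.87, 9.85, 8.79 and 10.7 CPM in the MDA-MB-231 EV libraries and at 11.6, 7.15, 7.90 and 7.50 CPM in the MCF-10A EV libraries, a log2 fold change of 0.18 ± 0.15 (SE; adjusted p = 0.639, edgeR). MCF-10A EV replicate 1 was the highest of all 9 libraries, and the other MCF-10A EV libraries were below all MDA-MB-231 EV libraries. Without that replicate the log2 fold change of Stat2 was 0.36 ± 0.13 (SE; adjusted p = 0.464, edgeR). Irf9 was at 9.64, 10.2, 9.55, 9.52 and 11.8 CPM in the MDA-MB-231 EV libraries and at 9.63, 9.87, 7.54 and 9.55 CPM in the MCF-10A EV libraries, a log2 fold change of 0.16 ± 0.13 (SE). MDA-MB-231 EV replicate 5 was the highest and MCF-10A EV replicate 3 the lowest for Irf9, and the other libraries of both groups lay between 9.52 and 10.2 CPM.

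Irf7, which amplifies type I interferon production and is itself induced by it, was at 5.69, 7.79, 5.88, 3.69 and 6.15 CPM in the MDA-MB-231 EV libraries and at 11.3, 4.43, 3.87 and 4.93 CPM in the MCF-10A EV libraries. The group means of Irf7 differed little (log2 fold change -0.07 ± 0.31, SE), and it was 0.41 ± 0.23 without MCF-10A EV replicate 1, the highest library. Nlrc5 was at 1.13, 0.566, 0.804, 1.17 and 1.30 CPM in the MDA-MB-231 EV libraries and at 1.10, 0.389, 0.847 and 0.525 CPM in the MCF-10A EV libraries, with a log2 fold change of 0.45 ± 0.37 (SE). The groups overlapped, and counts this low leave a wide error.

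The 3 cytosolic sensors of viral RNA did not move together. Ddx58 (RIG-I; ENSMUSG00000040296; chromosome 4, 40203773 to 40239828, minus strand) was at 6.77, 6.14, 6.74, 7.33 and 6.11 CPM in the MDA-MB-231 EV libraries, against 5.94, 5.75, 4.64 and 4.46 CPM in the MCF-10A EV libraries. The groups did not overlap, though MDA-MB-231 EV replicate 5 and MCF-10A EV replicate 1 nearly met. The log2 fold change of Ddx58 was 0.35 ± 0.14 (SE; adjusted p = 0.338, edgeR). Among libraries with islet transcripts it was 0.43 ± 0.22 and among those without 0.23 ± 0.25.

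Dhx58 (LGP2), which modulates the other sensors, was at 1.13, 1.13, 1.36, 0.874 and 1.35 CPM in the MDA-MB-231 EV libraries and at 2.59, 1.40, 1.49 and 0.892 CPM in the MCF-10A EV libraries, on 17 to 47 counts per library. Its log2 fold change of -0.44 ± 0.31 (SE; adjusted p = 0.562, edgeR) was -0.11 without MCF-10A EV replicate 1, the library with the highest value. Ifih1 (MDA5) had a log2 fold change of -0.02 ± 0.19 (SE) and was at 3.72 ± 0.578 CPM in MDA-MB-231 EV (SD, n = 5) and 3.79 ± 0.620 CPM in MCF-10A EV (SD, n = 4).

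**Figure D3:**
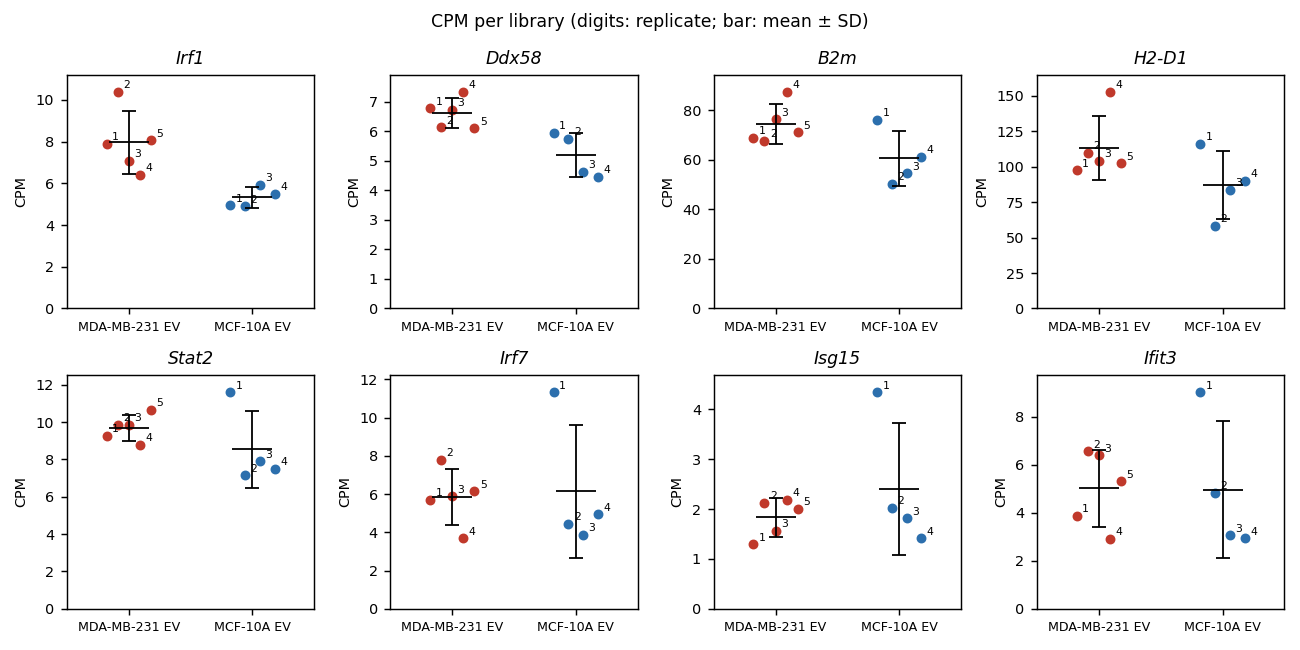
CPM per library for 8 genes, with MDA-MB-231 EV (red) left of MCF-10A EV (blue), digits giving the replicate and bars the mean ± SD. The groups do not overlap for Irf1 and Ddx58, and MCF-10A EV replicate 1 is the highest library for Stat2, Irf7, Isg15 and Ifit3.

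The antiviral effectors gave no common direction with all 9 libraries. Of 15 tested, 6 had a log2 fold change above 0 and 9 below, with a median of -0.091, and 0 had an unadjusted p under 0.05. Isg15, a ubiquitin-like modifier joined to proteins during the response, was at 1.29, 2.12, 1.56, 2.19 and 2.0 CPM in the MDA-MB-231 EV libraries and at 4.35, 2.02, 1.81 and 1.42 CPM in the MCF-10A EV libraries. Apart from replicate 1, the MCF-10A EV libraries lay within the range of MDA-MB-231 EV. The log2 fold change of Isg15 was -0.39 ± 0.33 (SE; adjusted p = 0.639, edgeR) and was 0.069 ± 0.27 without that replicate. Rsad2 (viperin), an enzyme that blocks viral replication, was at 3.11, 2.27, 2.66, 1.36 and 2.19 CPM in the MDA-MB-231 EV libraries and at 4.68, 4.20, 1.90 and 1.78 CPM in the MCF-10A EV libraries. Here MCF-10A EV replicates 1 and 2 were high and the other replicates of that group lay within the range of MDA-MB-231 EV, with a log2 fold change of -0.42 ± 0.34 (SE) that was -0.14 without replicate 1.

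Oas2, which makes the messenger that activates RNase L, was at 3.51, 2.5, 2.31, 1.99 and 3.22 CPM in the MDA-MB-231 EV libraries and at 3.69, 2.88, 3.10 and 3.15 CPM in the MCF-10A EV libraries, a log2 fold change of -0.24 ± 0.21 (SE). Ifi44 was at 1.25, 1.65, 0.955, 0.874 and 1.40 CPM in the MDA-MB-231 EV libraries and at 1.71, 1.55, 1.29 and 1.15 CPM in the MCF-10A EV libraries, a log2 fold change of -0.21 ± 0.27 (SE). The groups overlapped for both genes. Bst2 was at 13.0, 13.3, 15.2, 9.96 and 15.4 CPM in the MDA-MB-231 EV libraries and at 14.2, 4.90, 8.27 and 13.6 CPM in the MCF-10A EV libraries. MCF-10A EV replicates 2 and 3 were the lowest of all libraries for Bst2, while replicates 1 and 4 lay among MDA-MB-231 EV. Its log2 fold change was 0.37 ± 0.26 (SE; adjusted p = 0.562, edgeR), 0.93 ± 0.28 among libraries with islet transcripts and 0.037 ± 0.16 among those without.

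The Ifit genes, neighbours on chromosome 19 whose proteins bind viral RNA, had log2 fold changes of -0.10 ± 0.31 for Ifit1, -0.07 ± 0.19 for Ifit2 and 0.02 ± 0.35 for Ifit3 (SE). Ifit3 was at 3.87, 6.56, 6.38, 2.91 and 5.31 CPM in the MDA-MB-231 EV libraries and at 9.02, 4.82, 3.06 and 2.94 CPM in the MCF-10A EV libraries, so its replicates within a group differed more than the group means. Near-identical copies of Ifit3 and Oas1a can share their reads, so the values of both are uncertain. Usp18, the protease that removes ISG15 and dampens receptor signalling, had a log2 fold change of 0.05 ± 0.27 (SE). The remaining effectors (Ifi35, Oas1a, Oasl2, Mx2, Xaf1 and Rtp4) had log2 fold changes from -0.21 to 0.14, each smaller than its SE.

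Parp9, Dtx3l and Parp14, neighbours on chromosome 16 that encode ADP-ribosyltransferases and a ubiquitin ligase of the interferon response, were even across the libraries, with the highest CPM 1.28, 1.30 and 1.40 times the lowest for Parp9, Dtx3l and Parp14. Their log2 fold changes were 0.10 ± 0.12, -0.01 ± 0.11 and 0.15 ± 0.12 (SE) in that order. Dtx3l was at 10.2 ± 1.15 CPM in MDA-MB-231 EV (SD, n = 5) and at 10.3 ± 0.187 CPM in MCF-10A EV (SD, n = 4). Parp9 and Dtx3l overlap by 682 bases on opposite strands, and the strand setting of the counting is not given in the sources used here, so reads in the overlap cannot be assigned.

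The interferon-induced GTPases, which act on vacuoles that hold pathogens, had log2 fold changes from -0.15 (Gbp3) to 0.17 (Igtp), 5 of 6 above 0 and 0 with an unadjusted p under 0.05. Irgm1, at 13.3 ± 1.12 CPM in MDA-MB-231 EV (SD, n = 5) and 12.9 ± 2.63 CPM in MCF-10A EV (SD, n = 4), had the highest level of the 6 per length, at 3.43 FPKM. Gbp3 was at 3.47, 3.63, 4.73, 2.53 and 4.57 CPM in the MDA-MB-231 EV libraries, within the wider span of 6.82, 4.98, 3.19 and 1.94 CPM in the MCF-10A EV libraries. Iigp1 was at 3.72 ± 0.876 CPM in MDA-MB-231 EV (SD, n = 5) and 3.72 ± 1.17 CPM in MCF-10A EV (SD, n = 4). Gbp3 and Gbp7 overlap the annotated span of Gbp5, and Igtp that of Irgm2, on the same strand, so their reads may be shared.

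The genes of MHC class I and peptide loading all lay above 0, with log2 fold changes from 0.15 to 0.38 and a median of 0.22, and none passed. B2m (ENSMUSG00000060802; chromosome 2, 122147686 to 122153083, plus strand) read 68.9, 67.8, 76.5, 87.5 and 71.1 CPM in the MDA-MB-231 EV libraries, against 76.1, 50.5, 54.6 and 61.2 CPM in the MCF-10A EV libraries. MCF-10A EV replicate 1 lay among the MDA-MB-231 EV libraries and the other MCF-10A EV libraries lay below them all. The log2 fold change of B2m was 0.29 ± 0.13 (SE; adjusted p = 0.368, edgeR), and 0.42 ± 0.12 without that replicate (adjusted p = 0.464). Leaving out 1 library at a time, it lay between 0.22 and 0.42. Among libraries with islet transcripts it was 0.56 ± 0.16, and among those without, which include MCF-10A EV replicate 1, 0.012 ± 0.15.

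H2-D1 (ENSMUSG00000073411; chromosome 17, 35262730 to 35267499, plus strand) read 97.3, 109.7, 104.0, 152.8 and 102.5 CPM in the MDA-MB-231 EV libraries, against 116.2, 58.2, 83.6 and 90.2 CPM in the MCF-10A EV libraries. MDA-MB-231 EV replicate 4 was the highest and MCF-10A EV replicate 2 the lowest. The log2 fold change of H2-D1 was 0.38 ± 0.19 (SE; adjusted p = 0.423, edgeR), 0.73 ± 0.25 among libraries with islet transcripts and 0.035 ± 0.16 among those without. The libraries with islet transcripts include MCF-10A EV replicate 2 and those without include replicate 1, so islet transcripts and replicate cannot be told apart. Leaving out 1 library at a time, the log2 fold change of H2-D1 lay between 0.23 and 0.55. The value of 0.55 was that without MCF-10A EV replicate 1.

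Tap2, a subunit of the peptide transporter into the endoplasmic reticulum, was at 7.54, 8.12, 8.09, 8.65 and 9.69 CPM in the MDA-MB-231 EV libraries, against 7.21, 7.46, 6.57 and 7.19 CPM in the MCF-10A EV libraries. The groups did not overlap, by a narrow margin, and the log2 fold change was 0.25 ± 0.12 (SE; adjusted p = 0.415, edgeR). Tapbp was at 36.6, 36.3, 41.1, 39.9 and 35.2 CPM in the MDA-MB-231 EV libraries, against 37.2, 30.9, 32.1 and 31.9 CPM in the MCF-10A EV libraries, a log2 fold change of 0.20 ± 0.093 (SE; adjusted p = 0.404, edgeR). Again MCF-10A EV replicate 1 lay within the range of MDA-MB-231 EV. The log2 fold change of Tapbp was 0.31 ± 0.14 among libraries with islet transcripts and 0.045 ± 0.14 among those without, and that of Tap2 was 0.21 ± 0.20 and 0.30 ± 0.20. The part of islet tissue in these values was not tested. Tapbp shares 3421 bases with Zbtb22 on the same strand. Tap1, the partner subunit of Tap2, had a log2 fold change of 0.15 ± 0.22 (SE) and was at 4.13 ± 0.523 CPM in MDA-MB-231 EV (SD, n = 5) and 3.75 ± 1.20 CPM in MCF-10A EV (SD, n = 4), and H2-K1 had 0.15 ± 0.18 (SE). Tap1, Tap2, Tapbp, H2-K1 and H2-D1 lie within 1351601 bases on chromosome 17.

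Scaling moved all of these values together. With library sizes left unscaled, the median of all tested genes was 0.15 and that of the 38 genes 0.21, and 8 of the 38 had an unadjusted p under 0.05 with MDA-MB-231 EV higher, beside a background of 14.7%. Relative to the median of all genes, the genes described here lay at about the same place under both scalings.

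Within the MCF-10A EV group, replicate 1 held more of these transcripts than the other replicates. It was the highest of the 9 libraries for 17 of the 38 genes, beside 11.5% of all tested genes. MDA-MB-231 EV replicates 1 to 5 were the highest for 0, 4, 4, 3 and 5 of them, beside 9.11%, 10.3%, 7.67%, 12.1% and 7.79% of all genes. MCF-10A EV replicates 2 to 4 were the highest for 3, 1 and 1, beside 25.6%, 4.79% and 11.1%. Of the 15 antiviral effectors, 10 were highest in MCF-10A EV replicate 1. Against the mean of MCF-10A EV replicates 2 to 4, replicate 1 was higher for 31 of the 38, beside 45.3% of all tested genes. The median log2 ratio to that mean was 0.49, beside -0.036 over all tested genes. Oas1a was 2.62 times, Irf7 2.57 times, Ifit3 2.5 times, Isg15 2.48 times, Dhx58 2.05 times, Gbp3 2.03 times and Oasl2 2.02 times that mean. These were the only genes of the 38 above 2-fold (18.4%), beside 3.48% of all tested genes. By contrast Irf1 was 0.909 times and Igtp 0.825 times that mean. This is a description of 1 library that was noticed in the data.

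**Figure D4:**
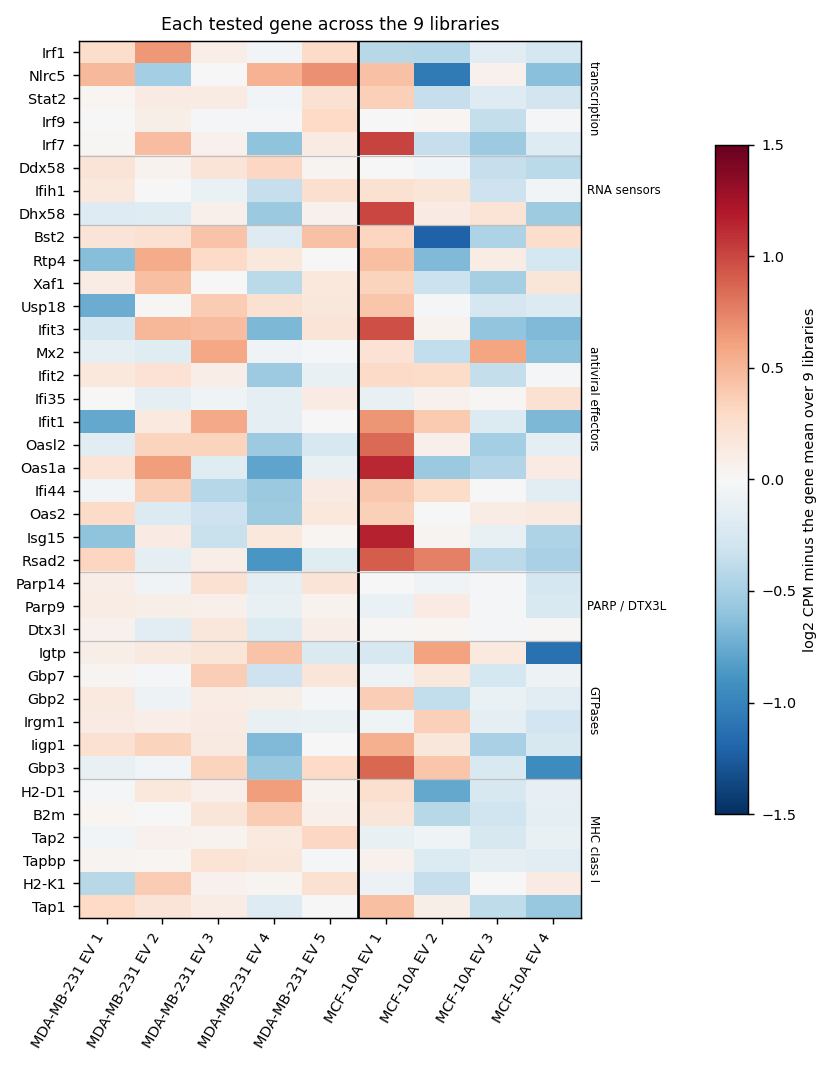
Log2 CPM of each of the 38 tested genes minus its mean over the 9 libraries, with MDA-MB-231 EV columns left of MCF-10A EV and genes grouped by role. MCF-10A EV replicate 1 is high for most antiviral effectors, and MDA-MB-231 EV replicate 4 is low for many of them while high for H2-D1 and B2m.

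Without MCF-10A EV replicate 1, 32 of the 38 genes had a log2 fold change above 0, beside 52.2% of all genes tested without it, and their median was 0.19, beside 0.015 over the same genes. The antiviral effectors then had 11 of 15 above 0 and a median of 0.14. At an unadjusted p under 0.05, 6 genes were higher in MDA-MB-231 EV (Irf1, Stat2, Ddx58, B2m, H2-D1 and Tapbp), and 0 passed after adjustment. The 6 genes are 15.8% of those tested, beside a background of 5.13%. The replicate was left out because many of these genes were high in it, which by itself raises their fold changes. The backgrounds were not chosen in that way, so these counts are a description and no evidence of a difference between the groups. Within MDA-MB-231 EV, replicate 4 was the lowest on average. There 11 of 38 genes lay above their own median over the 9 libraries, beside 44.3% of all tested genes. H2-D1 and B2m had their highest value in that library. The mean standardised log2 CPM of the 38 genes (SD units over the 9 libraries) was -0.43 in that library and between 0.053 and 0.41 in the other MDA-MB-231 EV libraries. It was 0.76 in MCF-10A EV replicate 1 and from -0.66 to -0.22 in MCF-10A EV replicates 2 to 4.

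The summed level of macrophage and monocyte markers was highest in MCF-10A EV replicate 1. All 14 listed markers found in the table were tested, with 0 at an unadjusted p under 0.05 between the groups and none at 0 counts. Their summed level was 179 to 212 CPM in the MDA-MB-231 EV libraries and 106 to 260 CPM in the MCF-10A EV libraries, with 259.7 CPM in MCF-10A EV replicate 1 and the lowest value in MCF-10A EV replicate 2. In MCF-10A EV replicate 1, 12 of the 14 exceeded the mean of the other MCF-10A EV libraries, beside 45.3% of all tested genes. Cx3cr1 and Mertk did not. The median ratio was 1.59, beside 0.975 over all tested genes, and the mean includes the low MCF-10A EV replicate 2. Of 10 muscle fibre markers, 8 also exceeded that mean in replicate 1, with a median ratio of 1.25. Csf1r, the receptor for macrophage growth factor, was at 41.1 CPM in MCF-10A EV replicate 1. It was at 20.4 to 29.0 CPM in the other MCF-10A EV libraries. Markers of endothelium, a tissue known for its MHC class I, summed to 762 to 873 CPM in the MDA-MB-231 EV libraries. In the MCF-10A EV libraries they summed to 563 to 718 CPM, so the sums did not overlap. Of single genes 2.22% did not overlap in this direction, which is no background for a sum over 14 markers. Of these 14 markers 7 had an unadjusted p under 0.05 with MDA-MB-231 EV higher, beside a background of 5.95%. The listed fibroblast and fibro-adipogenic progenitor genes summed to 5726 to 9131 CPM in the MDA-MB-231 EV libraries and to 4111 to 7418 CPM in the MCF-10A EV libraries, which overlapped, with 4 of 11 higher at an unadjusted p under 0.05. Muscle fibre markers went the other way, with sums of 126583 to 154870 CPM in MDA-MB-231 EV and 171111 to 219295 CPM in MCF-10A EV. Their sums did not overlap either. Of the 10 fibre markers, 4 were lower with MDA-MB-231 EV at an unadjusted p under 0.05, beside a background of 6.86%. The part of these cells in the levels of the interferon-stimulated and MHC class I genes was not tested.

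**Figure D5:**
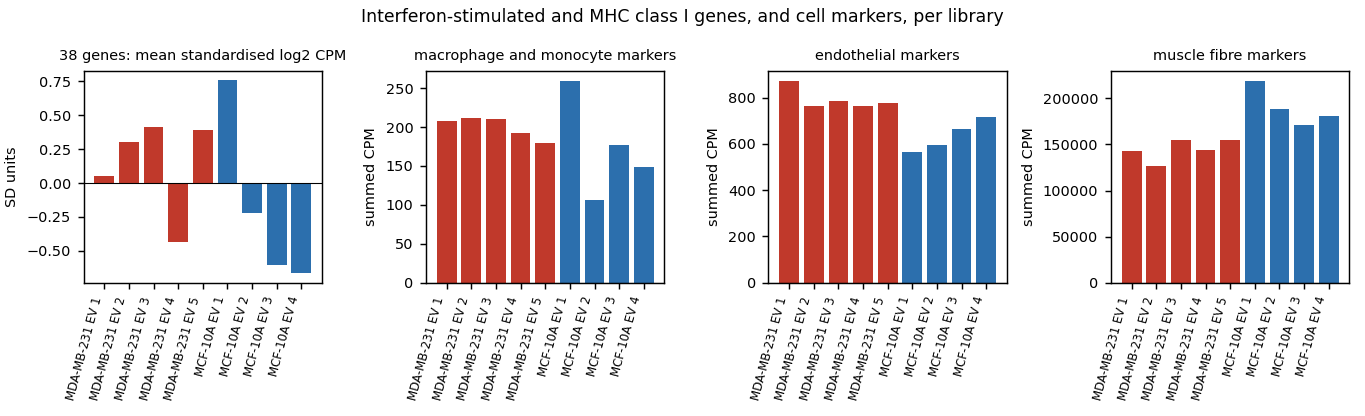
Per library, the mean standardised log2 CPM of the 38 tested genes (SD units) and the summed CPM of macrophage and monocyte, endothelial and muscle fibre markers, with MDA-MB-231 EV (red) left of MCF-10A EV (blue). MCF-10A EV replicate 1 is highest for the genes, for macrophage markers (259.7 CPM) and for fibre markers (219295 CPM), and lowest for endothelial markers (563 CPM).

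The interferons themselves were at or near the limit of detection. Of 9 ligand genes listed, 7 had no count in any library, which allows up to 0.119 CPM in the deepest and 0.215 CPM in the shallowest library (3 counts per library, before scaling and for counting error only). Ifnb1 had 4 counts, all in MDA-MB-231 EV replicate 3, and Ifng had 1 count in each of MDA-MB-231 EV replicates 1 and 2. The receptors were present. Ifnar1, the signalling chain for type I interferon, was at 15.1 ± 1.05 CPM in MDA-MB-231 EV (SD, n = 5) and 13.0 ± 0.916 CPM in MCF-10A EV (SD, n = 4), and its log2 fold change was 0.21 ± 0.10 (SE; adjusted p = 0.40, edgeR). Ifnar2 had a log2 fold change of 0.018 ± 0.15, Ifngr1 0.17 ± 0.15 and Ifngr2 -0.15 ± 0.18 (SE).

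Of 136 other genes of the pathway, 133 were in the table and 107 were tested, and 0 passed after adjustment. At an unadjusted p under 0.05, 10 were higher and 2 were lower with MDA-MB-231 EV, beside backgrounds of 5.95% and 6.86%. Their median log2 fold change was 0.079, beside 0.020 over all tested genes, and 74 of the 107 lay above 0, beside 53.1%. Irf5, a factor of macrophages that drives inflammatory genes, was at 3.27, 6.75, 6.08, 7.58 and 6.99 CPM in the MDA-MB-231 EV libraries and at 3.63, 4.59, 2.94 and 2.62 CPM in the MCF-10A EV libraries, a log2 fold change of 0.84 ± 0.25 (SE; adjusted p = 0.268, edgeR). Only MDA-MB-231 EV replicate 1 lay among the MCF-10A EV libraries. The class I gene H2-Q4 had a log2 fold change of 0.35 ± 0.12 and H2-Ab1, an MHC class II chain, 0.60 ± 0.21 (SE). Jak1, a kinase shared by type I and type II interferon receptors, was at 104.7 ± 10.0 CPM in MDA-MB-231 EV (SD, n = 5) and 127.8 ± 15 CPM in MCF-10A EV (SD, n = 4), with a log2 fold change of -0.29 ± 0.11 (SE; adjusted p = 0.329, edgeR). Mr1, which presents bacterial metabolites, had -0.28 ± 0.11 (SE).

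The counts by list stand beside the same backgrounds, 53.1% above 0 and 5.95% higher at an unadjusted p under 0.05. MHC class II had 5 of 5 tested genes above 0 and 3 of them (Cd74, H2-Aa and H2-Ab1) at an unadjusted p under 0.05, with a median of 0.37. Of 14 genes that sense nucleic acid upstream of interferon, 11 lay above 0, and Tmem173 (STING) and Mb21d1 (cGAS) had an unadjusted p under 0.05. The 43 tested other interferon-induced genes had 30 above 0, with Ly6e and Parp12 at an unadjusted p under 0.05 and a median of 0.095. The receptors and transducers (14 tested) had a median of -0.0026, the other interferon regulatory factors (6 tested) 0.032, the other GTPases (6 tested) 0.088 and the other class I and antigen processing genes (19 tested) 0.077. In MCF-10A EV replicate 1, 13 of the 43 other interferon-induced genes were the highest of the 9 libraries, beside 11.5% of all tested genes. None of the 19 other class I and antigen processing genes, of the 6 other GTPases or of the 5 class II genes was highest there. All of these lists are too short to set 0 apart from that background. Zbp1, from the nucleic acid sensing list and named after its values were seen, had 83 counts in replicate 1 of MCF-10A EV and 2 to 18 in the other libraries.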

How the data were processed

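Poly-A RNA from 9 gastrocnemius samples was sequenced by Novogene, per the labels. Whole gene counts were deposited by the authors, per gene and library, on mm10. The FPKM values were deposited too and equal count over length and library total within 0.1% for 100% of 161066 values, so they hold no factor between libraries. STAR 2.5, HTSeq 0.6.1, TopHat, DESeq2 and edgeR are named without roles, per the submitters' processing notes. Annotation release and strand setting are not given in the sources used here.

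The 39 genes and all other lists were chosen with earlier results of these data known. Differences in counts were tested in edgeR 4.0.16 by its quasi-likelihood F-test (R 4.3.3; TMM scaling, robust dispersion, group as the only term, two-sided), on genes kept by filterByExpr (minimum count 10, minimum total 15), with Benjamini-Hochberg adjustment over 13901 genes. CPM uses TMM-scaled library sizes, and standardised values use log2 CPM with a prior count of 2. The test was tried on simulated counts.

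The genes named with values in every library are up to 5 per direction with the smallest p, those whose groups do not overlap, the 4 of highest mean FPKM, and Stat2, Irf9 and Nlrc5. Irf7, Ifit3, Gbp3 and Zbp1 were added after their values were seen. Of other interferon genes, 4 receptor genes are given, and up to 3 per direction with the smallest p. A further gene that this rule names is not reported here. Alternatives were RLE and no scaling, other count filters, DESeq2 1.42.0, limma 3.58.1 (voom and log2 FPKM), a replicate block, islet subsets, and leaving out libraries. Symbols Ifit3b, Ifit1bl1, Gbp10 and Adgre1 were not matched. All per-sample columns were used.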

Additional observations from a re-analysis of the deposited data

Results flagged for a closer look

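In 6 of 76 sets of replicates (38 genes in both groups, 7.89%), 1 library lay far from the others of its group, by the gap to its nearest neighbour over the range of the group. For independent and normally distributed values, chance would flag about 1 set in 20. The sets share libraries and are not independent, so 7.89% cannot be tested against that rate. H2-D1 was at 152.8 CPM in MDA-MB-231 EV replicate 4 and at 97.3 to 109.7 CPM in the other MDA-MB-231 EV libraries. Parp9 was at 7.09 CPM in MDA-MB-231 EV replicate 4, below the 7.97 to 8.27 CPM of the rest. Mx2 was at 1.21 CPM in MDA-MB-231 EV replicate 3, above 0.708 to 0.792 CPM. In MCF-10A EV, Irf7 was at 11.3 CPM in replicate 1 and at 3.87 to 4.93 CPM in the others, and Stat2 was at 11.6 CPM in replicate 1 and at 7.15 to 7.90 CPM in the others. Irf9, which pairs with STAT2, was at 7.54 CPM in MCF-10A EV replicate 3 and at 9.55 to 9.87 CPM in the others. The high values of Irf7 and Stat2 are in the library in which 17 of the 38 genes were highest.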

How the results depend on the processing

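Under 21 alternatives 0 of the 39 genes passed an adjusted p under 0.05 and 0 were lower at an unadjusted p under 0.05. Of 315 fold changes of the 15 genes named by rule, 310 kept their direction. Genes at an unadjusted p under 0.05 with MDA-MB-231 EV higher (3 with all libraries) numbered 8 with unscaled library sizes, 8 on log2(FPKM + 1), 8 on log2(FPKM + 0.1), 8 with both MCF-10A EV replicates 1 and 2 left out, and 1 among libraries without islet transcripts. Leaving out 1 library gave 1 to 6, with 1 without MDA-MB-231 EV replicate 4, MCF-10A EV replicate 3 or MCF-10A EV replicate 4, and 6 when MCF-10A EV replicate 1 was left out. With the replicate number as a block this count was 1. The numbers are not stated to pair mice. Deviations of same-numbered libraries correlated at -0.30, -0.18, 0.038 and 0.080, beside -0.22 to 0.27 for libraries of different number. These few values cannot settle whether the samples were paired. The median log2 fold change of the genes (0.071) was 0.25 with both MCF-10A EV replicates 1 and 2 left out, and -0.0088 to 0.19 leaving out 1 library. The log2 fold change of Isg15 (-0.39) lay between -0.58 and 0.069 leaving out 1 library, above 0 only without MCF-10A EV replicate 1, and was 0.17 with both replicates 1 and 2 of MCF-10A EV left out. With both left out, Rsad2 turned to 0.33 and Ifi44 to 0.0015, and Ifi44 was 0.090 among libraries without islet transcripts. Over all genes, DESeq2 called 228 and edgeR 0 to 2 when leaving out 1 library (2 when MCF-10A EV replicate 4 was left out). The median of all genes (0.020) was 0.15 unscaled, 0.049 without a filter, 0.032 with DESeq2, 0.031 with voom, 0.099 on log2(FPKM + 1), 0.16 on log2(FPKM + 0.1), 0.032 with the replicate block, 0.0075 with both MCF-10A EV replicates 1 and 2 left out, and 0.015 to 0.035 leaving out 1 library. The causes were not tested. Counts of 5 to 50 per library for genes such as Nlrc5, Oas1a and Dhx58 limit their precision.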

Other observations

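Among 13756 tested genes whose symbols are outside the interferon lists, 5 followed the mean standardised level of the 38 genes most closely over the 9 libraries. By log2 CPM these were Magee1 (Pearson r = 0.99, Spearman rho = 0.95), I830012O16Rik (r = 0.92, rho = 0.90), Themis2 (r = 0.91, rho = 0.92), Plxnc1 (r = 0.90, rho = 0.92) and Fgd2 (r = 0.89, rho = 0.88). They were picked for this likeness, so the coefficients are a description and carry no test. Without the 2 libraries farthest from the median level, r was 0.99 for Magee1, 0.84 for I830012O16Rik, 0.85 for Themis2, 0.93 for Plxnc1 and 0.76 for Fgd2. I830012O16Rik is an older symbol of Ifit3b, so it was outside the lists by symbol only. It is a near copy of Ifit3, 1 of the 38 genes, and may share its reads. Themis2 and Fgd2 are known from immune cells, and Magee1 encodes a MAGE-family protein.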
